A study of Mus musculus with 8 samples.

Results

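This account concerns 10 genes of heart muscle as measured in whole mouse lung: Myh6, Myl7, Myl4, Nppa, Tnnt2, Tnni3, Actc1, Ryr2, Sln and Tnnc1. They were taken by gene name from the array annotation, where they have 19 of the 56605 probes and make 10 of the 37074 gene names. All 10 were among the 25830 genes kept for testing, because each had a probe well above background on all 8 arrays. The genes were picked with their levels on these arrays already known, so their levels and differences are given as a description and carry no test.

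In mice, a sleeve of heart muscle of the atrial type runs from the left atrium along the pulmonary veins and reaches into the lung. Its cells contract through a sarcomere built of cardiac myosin, actin and the troponin complex, driven by calcium that leaves the sarcoplasmic reticulum through the ryanodine receptor and is pumped back under the control of small membrane peptides. Atrial muscle cells also store and secrete atrial natriuretic peptide, a hormone released on stretch that lowers blood volume and pressure.

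The lungs came from 8 male bone marrow chimeras aged 22 weeks, taken 72 h after diphtheria toxin. LL mice had LysM-DTR marrow and were LysM-DTR recipients, WL mice had wild-type marrow in LysM-DTR recipients, LW mice had LysM-DTR marrow in wild-type recipients, and WW mice were wild type on both sides. In LysM-DTR mice the promoter of the lysozyme M gene drives the diphtheria toxin receptor, so cells that use it, chiefly myeloid cells and in the lung also alveolar type II cells, become sensitive to the toxin. All mice received toxin and marrow, and no mice without toxin are among the samples. Each group had 2 mice with 1 array each, and a level is the log2 processed signal minus the 75th percentile of its array.

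Between 66.3% and 72.3% of spots were well above background on an array, no spot was saturated, and the 75th percentile lay between 208.6 and 324.4 intensity units. The arrays shared 1 slide and 1 scan. One slide column carried LL and WL and the other carried LW and WW, so recipient genotype and slide column cannot be told apart. The WL mice stand apart from each other: Lyz2, the gene of lysozyme M, was at 8.70 in WL replicate 1 and 7.36 in replicate 2, and Sftpc, the surfactant protein C gene of alveolar type II cells, at 9.51 and 7.55. The LL mice had Lyz2 at 4.67 and 4.94 and Sftpc at 7.41 and 7.83, the LW mice Lyz2 at 8.99 and 8.84 and Sftpc at 9.70 and 9.57, and the WW mice Lyz2 at 9.05 and 9.09 and Sftpc at 9.63 and 9.81. Values are therefore given by mouse throughout, and in a homogenised lung fewer cells of a type and less RNA per cell cannot be told apart.

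The label of pulmonary vein heart muscle was set against markers. The atrial light chains Myl7 and Myl4 and the atrial genes Sln and Nppa were above the 75th percentile on every array. Among the markers of ventricular muscle, Myl2, the ventricular regulatory light chain, lay between -4.08 and -2.81, Irx4, a ventricular transcription factor, between -3.95 and -3.16, and Myl3, the ventricular essential light chain, between -1.82 and -1.0, each well above background on all 8 arrays. Myh7, the beta myosin heavy chain of ventricle and slow skeletal muscle, lay between 0.36 and 1.37, above the 75th percentile on every array. Of the remaining genes on the ventricular list, Tnni1 lay between -0.69 and -0.38, well above background on all 8 arrays. Kcnip2 was well above background on 4 of 8 arrays and Hey2 was not kept for testing. Nkx2-5, a cardiac transcription factor, lay between -4.47 and -3.14, and the atrial growth factor gene Bmp10 between -4.41 and -3.38. Levels of different probes were not set against each other. These arrays cannot tell muscle of the veins within the lung apart from atrial muscle attached to it.

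The sequences below lie before the start of 4 members, Nppa, Tnnt2, Myl7 and Myh6. Each is the 250 bases before the transcription start from RefSeq on GRCm38.p6, written along the strand of the gene, and capitals mark motif matches on either strand. All 10 members matched a RefSeq gene, and 9 have such a window. The search covered GATA sites (TGATAA or AGATAA), NKX2-5 sites (TNAAGTG), T-box sites (GGTGTNA), M-CAT sites bound by TEAD factors (CATTCCT), the SRF CArG box and the MEF2 site.
Nppa, chr4:148000472-148000721, plus strand: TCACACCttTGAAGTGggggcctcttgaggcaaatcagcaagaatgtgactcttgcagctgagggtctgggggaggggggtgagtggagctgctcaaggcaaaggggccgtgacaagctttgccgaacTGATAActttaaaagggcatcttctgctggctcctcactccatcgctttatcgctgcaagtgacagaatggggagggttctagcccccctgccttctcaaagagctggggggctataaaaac
Tnnt2, chr1:135836084-135836333, plus strand, the first of its 2 listed starts: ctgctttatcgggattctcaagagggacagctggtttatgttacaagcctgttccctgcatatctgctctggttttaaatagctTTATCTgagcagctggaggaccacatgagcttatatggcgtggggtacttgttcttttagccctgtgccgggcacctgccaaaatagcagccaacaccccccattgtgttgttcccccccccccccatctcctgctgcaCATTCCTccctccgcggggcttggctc
Myl7, chr11:5898783-5899032, minus strand: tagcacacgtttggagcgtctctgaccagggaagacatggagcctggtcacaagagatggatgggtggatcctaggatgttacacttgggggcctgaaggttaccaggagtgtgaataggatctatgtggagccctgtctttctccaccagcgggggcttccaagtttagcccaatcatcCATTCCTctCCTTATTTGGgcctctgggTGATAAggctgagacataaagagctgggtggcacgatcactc
Myh6, chr14:54966608-54966857, minus strand: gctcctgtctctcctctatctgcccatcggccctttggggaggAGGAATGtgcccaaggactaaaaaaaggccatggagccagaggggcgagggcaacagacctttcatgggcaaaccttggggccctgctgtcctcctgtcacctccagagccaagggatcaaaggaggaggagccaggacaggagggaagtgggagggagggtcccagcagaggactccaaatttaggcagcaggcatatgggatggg

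Nppa held a T-box match at -250 to -244, an NKX2-5 match at -241 to -235 and a GATA match at -122 to -117, counted back from the start. Tnnt2 held a GATA match at -166 to -161 and an M-CAT match at -27 to -21. Myl7 held an M-CAT match at -70 to -64, a CArG box at -61 to -52 and a GATA match at -42 to -37, none of them overlapping, and Myh6 a single M-CAT match at -207 to -201. Among the other members, Actc1 held a CArG box and Tnni3 a T-box match. Of the 9 members with a window, 3 held a GATA match against 16.6% of all 32851 windows, 3 an M-CAT match against 4.51%, 2 a CArG box against 1.47%, 2 a T-box match against 8.61% and 1 an NKX2-5 match against 10.1%. No member held a MEF2 match, which 2.92% of windows had. A match is a run of letters and not evidence of binding.

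The probes that report the troponin genes are shown because 1 of these genes differed by probe. Tnni3 has a pair of probes that follow each other in the transcript, and capitals mark the 9 bases they share. Probe positions follow the annotation supplied for mm9, and a span longer than 60 bases means that the probe crosses at least 1 intron.
Tnni3 A_51_P386983, chr7:4472043-4472102, minus strand: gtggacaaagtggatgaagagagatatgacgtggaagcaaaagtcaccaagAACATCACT
Tnni3 A_55_P2502861, chr7:4471129-4472051, minus strand: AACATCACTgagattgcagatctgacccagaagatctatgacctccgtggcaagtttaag
Tnnt2 A_51_P338262, chr1:137747976-137748288, plus strand: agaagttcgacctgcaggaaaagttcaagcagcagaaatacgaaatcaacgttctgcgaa
Tnnc1 A_51_P461894, chr14:32023360-32023776, plus strand: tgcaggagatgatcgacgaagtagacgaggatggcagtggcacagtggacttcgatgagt

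The myosin genes were lower in all 3 groups with LysM-DTR marrow or recipient than in WW lungs, but in different orders. Myh6, the alpha myosin heavy chain that drives contraction in the adult mouse heart, was at 6.28 and 6.07 in LL, 5.65 and 5.07 in WL, 5.96 and 6.26 in LW, and 6.43 and 6.58 in WW. WW was above every other array, and WL was below every other array. The difference from WW was -1.14 ± 0.24 (SE, the standard error of the limma fit) in WL, 0.453 times the WW mean, but -0.33 in LL and -0.40 in LW, each with the same SE. The order of the group means was WW, LL, LW and WL, and LL and LW overlapped.

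Myl7, the atrial regulatory light chain, was at 4.95 and 4.32 in LL, 4.84 and 4.34 in WL, 4.85 and 5.29 in LW, and 5.53 and 5.66 in WW. Myl4, the atrial essential light chain, was at 4.75 and 4.45 in LL, 5.0 and 4.43 in WL, 4.99 and 5.49 in LW, and 5.63 and 5.73 in WW. For both light chains WW was above all 6 other arrays, and WL overlapped LL. WL also overlapped LW for Myl4, whereas for Myl7 both WL arrays were below both LW arrays, replicate 1 only just. Myl7 differed from WW by -0.96 ± 0.29 (SE) in LL, -1.0 in WL and -0.52 in LW, which put LL at 0.516 and WL at 0.499 times the WW mean. Myl4 differed by -1.08 ± 0.26 (SE) in LL, -0.96 in WL and -0.44 in LW. The motor and its light chains thus had unlike values in LL: Myh6 there was at 0.794 times the WW mean, and Myl4 at 0.473 times.

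In the thin filament, troponin I followed the light chains and troponin T did not. Tnni3, the inhibitory troponin subunit of the adult heart, was at 2.08 and 2.09 in LL, 2.12 and 1.49 in WL, 2.10 and 2.46 in LW, and 2.82 and 2.79 in WW. WW lay above the other arrays, and WL replicate 2 lay below them. Its differences were -0.72 ± 0.24 (SE) in LL, -1.0 in WL and -0.53 in LW. The neighbouring Tnni3 probe gave -0.73, -1.05 and -0.45 for the same differences and correlated with the first at 0.99 over the 8 arrays.

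Tnnt2, cardiac troponin T, which anchors the troponin complex to tropomyosin, was at 4.62 and 4.46 in LL, 3.36 and 4.03 in WL, 3.47 and 3.79 in LW, and 3.95 and 4.03 in WW. It was the only member whose LL arrays were both above all other arrays, and WL replicate 2 sat at the WW level. The LL difference from WW was 0.55 ± 0.25 (SE), a ratio of 1.46, against -0.30 in WL and -0.36 in LW. This rests on the probe printed above. A second Tnnt2 probe, at chr1:137736237-137736296 on mm9, was also above background on all 8 arrays and read -0.59 and -0.74 in LL, -1.39 and -1.17 in WL, -1.14 and -0.47 in LW, and -0.97 and -0.28 in WW. Its LL and WW arrays overlapped with a difference of -0.05, and it correlated with the printed probe at 0.55 over the 8 arrays, so the higher Tnnt2 in LL holds for 1 of the 2 probes. The second probe has 0 reading frames free of a stop codon, and the printed probe has 3. Where the second probe lies in the transcript could not be looked up.

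Tnnc1, the calcium-binding troponin subunit of heart and slow skeletal muscle, was at -0.51 and -1.13 in LL, -1.06 and -0.91 in WL, -1.26 and -1.04 in LW, and -0.54 and -0.61 in WW. The LL mice spanned most of the range, with replicate 1 at the WW level and replicate 2 among the LW and WL arrays. Tnnc1 differed from WW by -0.24 ± 0.23 (SE) in LL, -0.41 in WL and -0.57 in LW. Actc1, cardiac alpha-actin, was at 3.46 and 2.91 in LL, 3.5 and 3.03 in WL, 3.37 and 3.64 in LW, and 3.76 and 3.37 in WW. Every group of Actc1 overlapped WW, and its differences of -0.38, -0.31 and -0.06 in LL, WL and LW have an SE of 0.27.

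Both calcium genes were lowest in WL. Ryr2, the channel that releases calcium for each beat, was at -0.77 and -0.90 in LL, -1.09 and -2.04 in WL, -1.19 and -0.65 in LW, and -0.67 and -0.40 in WW. On this probe WL replicate 2 lay far below the other 7 arrays, and LW replicate 1 lay below WL replicate 1. The WL difference was -1.03 ± 0.35 (SE) against -0.30 in LL and -0.38 in LW. A second Ryr2 probe was also above background on all 8 arrays. It read -2.03 and -1.98 in LL, -2.56 and -2.77 in WL, -2.33 and -1.92 in LW, and -1.64 and -1.59 in WW. There WL replicate 2 was not far below replicate 1, and WW was above all other arrays. The 2 probes correlated at 0.90. Sln encodes sarcolipin, an inhibitor of the calcium pump that is abundant in atria, and was at 3.91 and 4.11 in LL, 3.71 and 3.35 in WL, 3.67 and 3.90 in LW, and 4.34 and 4.40 in WW. WW was above all other arrays, LL only just cleared LW, and LW overlapped WL. Sln differed from WW by -0.36 ± 0.18 (SE) in LL, -0.84 in WL and -0.59 in LW.

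Nppa, the precursor of atrial natriuretic peptide, varied most among the members and between mice of the same group. It was at 4.33 and 3.0 in LL, 2.27 and 3.63 in WL, 1.78 and 2.34 in LW, and 3.2 and 4.11 in WW. Only LW lay wholly below WW, by -1.60 ± 0.63 (SE), which is 0.331 times the WW mean, whereas the difference was 0.01 in LL and -0.70 in WL. No neighbours in the order LL, WW, WL and LW were free of overlap. The other Nppa probe read 2.54 and 1.21 in LL, 0.36 and 1.81 in WL, -0.31 and 0.38 in LW, and 1.22 and 2.08 in WW, and tracked the first at a correlation of 0.99, so the spread between mice was seen by both probes.

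**Figure D1:**
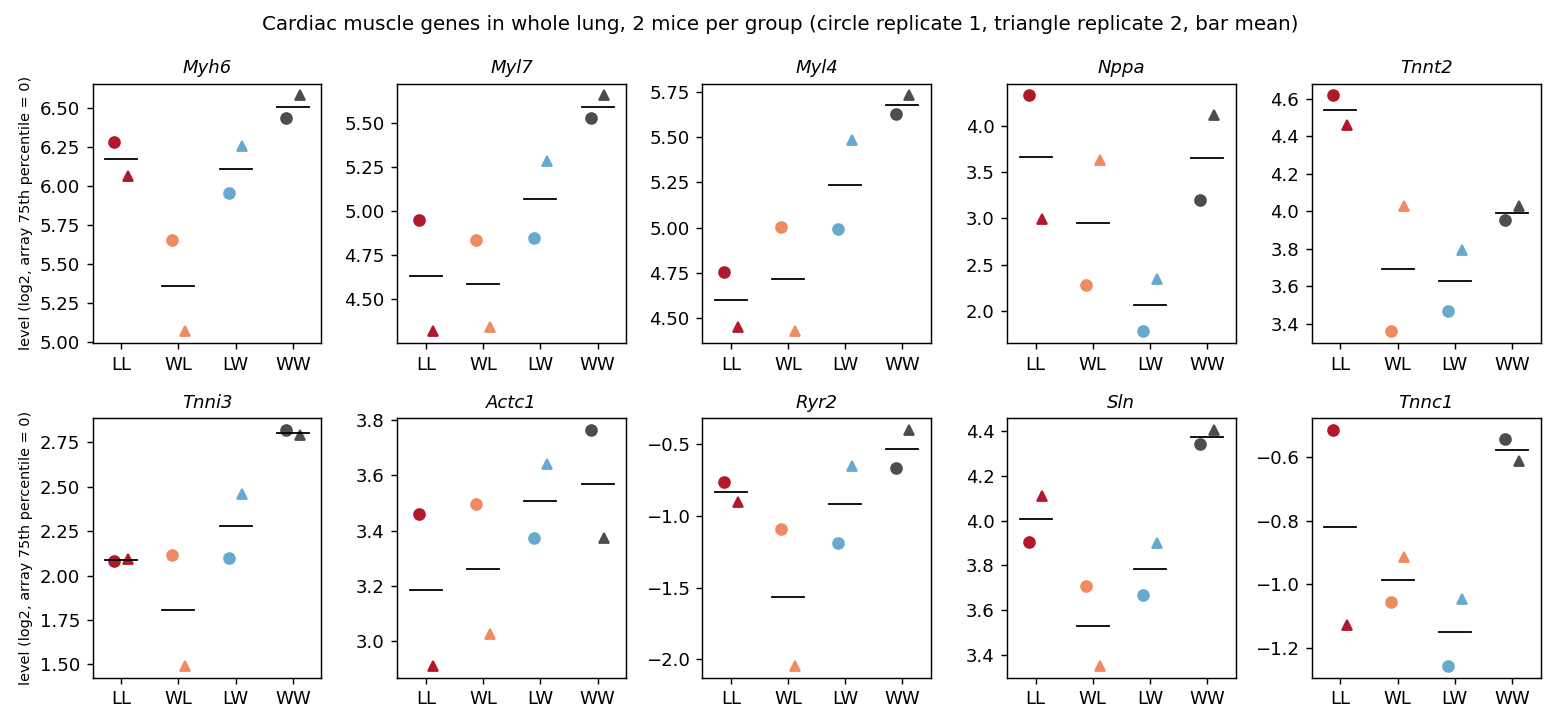
Level of each of the 10 heart muscle genes (log2 signal, array 75th percentile at 0) in the 2 mice of each group, with the mean as a bar and a separate y axis per gene. WW lies above the other 6 arrays for Myh6, Myl7, Myl4, Tnni3 and Sln, and LL lies above all others for Tnnt2.

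Read as departures from the WW mean, the members averaged -0.20 and -0.57 in LL replicates 1 and 2, -0.68 and -0.86 in WL, and -0.73 and -0.36 in LW, against -0.06 and 0.06 in the WW mice themselves. All 6 arrays outside WW were thus below both WW arrays on this mean. The median of all genes departed by no more than 0.08 on any array. Over members, the median difference from WW was -0.35 in LL, with 8 members below 0 and 2 above, and -0.90 in WL and -0.48 in LW with all 10 below 0. The 3 comparisons share the WW arrays. Medians over all genes tested were 0.03 in LL, -0.05 in WL and -0.02 in LW.

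The arrays of LL and WW did not overlap for 6 members that were lower (32.4% of all genes) and for 1, Tnnt2, that was higher (37% of all genes). WL was lower without overlap for 7 members, against 24.4% of all genes, and LW for 8, against 20.1%. In limma fitted over all genes with Benjamini-Hochberg adjustment, none of the 10 members passed an adjusted p under 0.05 in LL, where 3.13% of all genes did, in WL (0.00387%), in LW (0.0542%) or in the interaction of marrow and recipient (0.0619%). At an unadjusted p under 0.05 the numbers of members were 3, 6, 3 and 4, beside 6402, 2112, 569 and 2360 of all 25830 genes. As the members were picked on these contrasts, nothing is read from these counts. With both WL arrays left out, 4 members passed in LL against WW (Myl4, Myl7 and Tnni3 lower, Tnnt2 higher), as did 8286 of all genes.

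**Figure D2:**
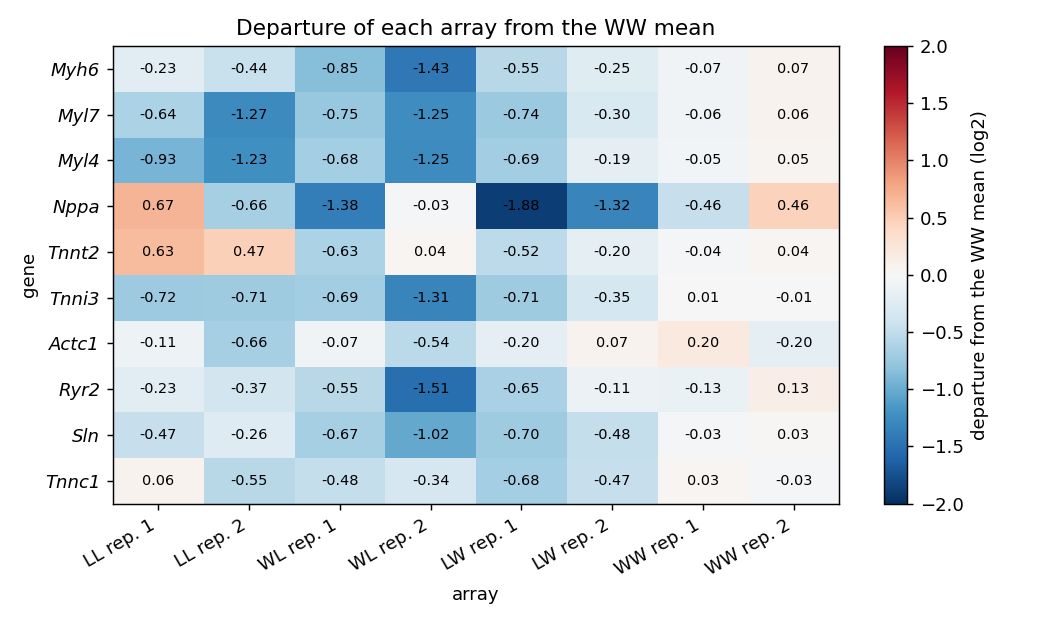
Departure of each array (columns) from the WW mean of the gene (rows), on the log2 scale, blue below and red above. Myl7, Myl4 and Tnni3 are blue across LL, WL and LW, whereas Nppa and Tnnt2 are red in LL replicate 1 and near 0 in WL replicate 2.

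The members could be set into groups by how their levels ran over the 8 arrays, given here as a description because the points share mice and groups. Myl7 and Myl4 correlated at 0.97 and Myh6 and Ryr2 at 0.97, and Tnni3 correlated with Myl4, Myl7, Myh6, Ryr2 and Sln at 0.89 to 0.91. Nppa stood with Tnnc1 (0.83) and Tnnt2 (0.77) and was near 0 with Tnni3 (0.06) and Myl4 (-0.03). Tnnt2 ran against Actc1 (-0.36) and Myl4 (-0.33). The interaction, which is the recipient difference under LysM-DTR marrow minus that under wild-type marrow, was above 0 for 9 members and -0.01 for Actc1. Of all genes tested, 42.6% were below 0 in the interaction, and their median was 0.07. WW enters this contrast with a plus sign, and the members were picked with their WW levels known. Nothing is therefore read from the count of members. The largest interaction values were 2.31 ± 0.89 (SE) for Nppa, 1.21 ± 0.33 for Myh6 and 1.20 ± 0.35 for Tnnt2.

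A total of 88 other genes listed for roles in heart muscle, grouped by role, gave 83 tested genes. Not all are particular to heart muscle, as for Gja1 and Tbx18, so in whole lung these lists do not measure heart muscle alone. Of the 83 genes, 2 changed in LL against WW (2.41% against 3.13% of all genes). Tbx18, a transcription factor of the sinus horn, epicardium and mural cells, rose in LL, and Mb, the oxygen-binding protein myoglobin of heart and red muscle, fell in LL. Tbx18 was at -1.36 and -1.62 in LL, -3.22 and -3.23 in WL, -2.85 and -3.12 in LW, and -3.42 and -3.40 in WW. Only the LL mice were high, by 1.92 ± 0.16 (SE) over WW with a limma adjusted p of 0.0087, and by 0.72 under another background correction (adjusted p = 0.036). The adjusted p ranged from 0.0026 to 0.087 over the alternatives and was above 0.05 without LL replicate 1 or without either WW mouse.

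Mb was at 0.46 and 0.85 in LL, 1.78 and 0.69 in WL, 2.04 and 2.22 in LW, and 2.59 and 2.90 in WW. LL was below LW and WW on every array, and WL replicate 2 sat with LL. The LL difference was -2.09 ± 0.37 (SE) with a limma adjusted p of 0.043, which ranged from 0.0033 to 0.226 over the alternatives and was above 0.05 without any single LL, LW or WW mouse, with no detection filter (0.074) and with a replicate block (0.080). In WL, LW and the interaction, limma called 0 of the 83 genes, and an unadjusted p under 0.05 was reached by 34, 10 and 20 of them, beside 2112, 569 and 2360 of all 25830 genes. The LL count depended on the WL mice, whose spread enters the pooled error: it was 29 without either or both of them, when 8286 of all genes were called, and 0 or 1 without any one of the other mice. In WL against WW the count was 48 without WL replicate 1, when 9741 of all genes were called.

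Most of the other sarcomere and Z-disc genes also had differences below 0, none of them called. Of 20 tested, 13 were below 0 in LL with a median difference of -0.25, 17 in WL with a median of -0.83 and 19 in LW with a median of -0.42. Mybphl, a myosin-binding protein of atrial muscle, was at -1.07 and -1.46 in LL, -0.95 and -1.51 in WL, -0.85 and -0.74 in LW, and -0.01 and -0.13 in WW, with WW above all others and an LL difference of -1.20 (limma adjusted p = 0.056).

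Ankrd1, a stretch-responsive protein of the sarcomere that was chosen here after its values were seen, did not follow the members. It was at 3.44 and 3.18 in LL, 1.14 and 4.57 in WL, 1.32 and 1.56 in LW, and 2.05 and 1.78 in WW. The LL arrays were above both WW arrays, and the WL mice held the highest and the lowest level of all 8.

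Other calcium handling genes had medians nearer 0, with no gene called. Of 11 tested, 8 were below 0 in LL, 10 in WL and 8 in LW, with medians of -0.16, -0.31 and -0.22. Casq2, the calcium store protein of the cardiac sarcoplasmic reticulum, was at 0.97 and 0.98 in LL, 0.24 and 0.19 in WL, 0.33 and 0.59 in LW, and 1.02 and 1.05 in WW. LL and WW lay close together and above every WL and LW array, with an interaction of 1.33 ± 0.20 (SE, limma adjusted p = 0.10). Atp2a2, the calcium pump that sarcolipin inhibits, was at 2.96 and 2.91 in LL, 2.52 and 2.32 in WL, 2.70 and 2.81 in LW, and 3.12 and 3.08 in WW, in the same order of groups as Sln. Fkbp1b, a ryanodine receptor-binding protein, was at 1.86 and 2.34 in LL, 0.10 and 1.36 in WL, 0.32 and 0.02 in LW, and 0.23 and 0.19 in WW, an LL difference of 1.89 (limma adjusted p = 0.070).

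Genes of muscle energy supply had the lowest median in LL among the heart muscle lists. Of 12 tested, 9 were below 0 in LL, 12 in WL and 12 in LW, with medians of -0.61, -0.89 and -0.35. Ckm, the cytosolic creatine kinase of muscle, was at -4.71 and -5.03 in LL, -2.79 and -4.50 in WL, -2.73 and -2.29 in LW, and -2.13 and -2.31 in WW. Its LL arrays were the dimmest, 1 of them not well above background, and the LL difference was -2.65 (limma adjusted p = 0.057). Fabp3, the heart fatty acid-binding protein, was at 4.40 and 4.0 in LL, 3.05 and 3.30 in WL, 3.49 and 3.68 in LW, and 3.85 and 3.85 in WW. LL was highest and WL lowest for Fabp3, with an interaction of 1.29 (limma adjusted p = 0.20).

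**Figure D3:**
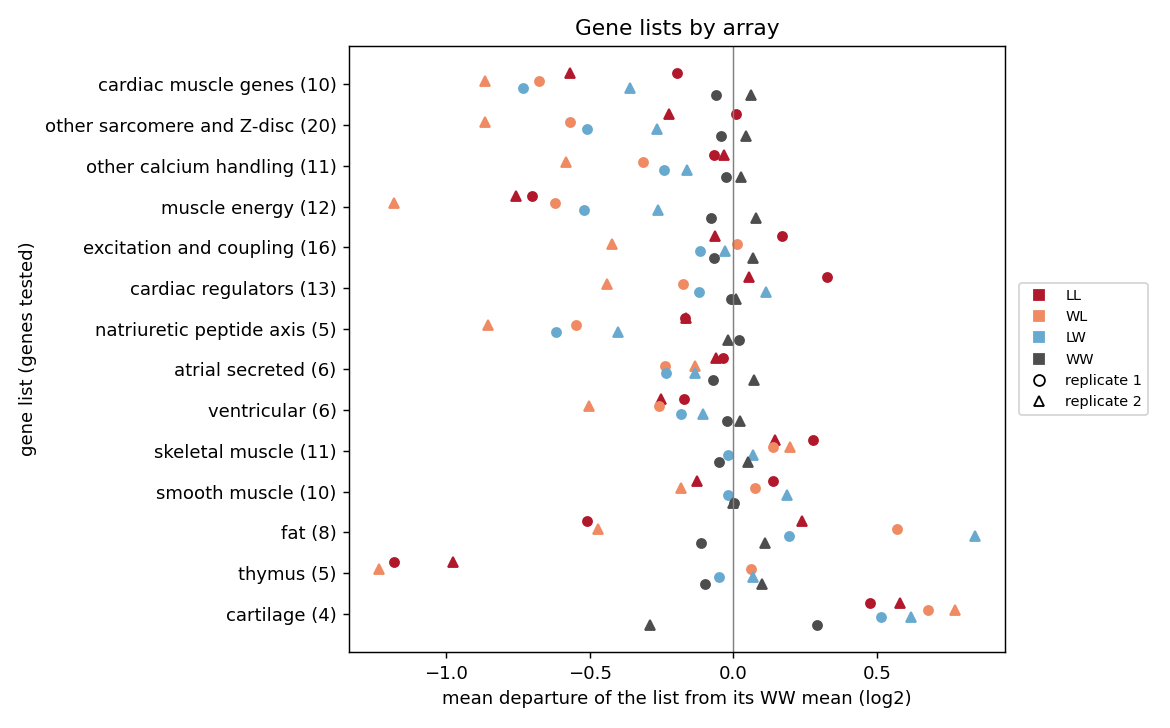
Mean departure from the WW mean (log2, x axis) of each gene list (rows, number of genes tested in brackets) on each of the 8 arrays. The 10 heart muscle genes, the other sarcomere genes and the energy genes lie left of 0 in WL and LW, and the thymus list lies at -1.18 and -0.97 in LL and at -1.23 in WL replicate 2.

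Among the genes of the natriuretic peptides and their receptors, the WL mice lay far apart for Nppb and Npr3. Of 5 tested, with Nppc not kept, 3 were below 0 in LL, 5 in WL and 3 in LW, with medians of -0.12, -0.41 and -0.32. Nppb, which encodes the B-type peptide, was at -1.39 and -1.92 in LL, -3.97 and -1.98 in WL, -4.54 and -3.89 in LW, and -2.87 and -2.98 in WW. LL was above WW by 1.27 and LW below it by 1.29 on the log2 scale, and the WL mice lay on both sides. One LW array was not well above background for Nppb. Corin, the protease that activates the atrial peptide precursor, was at -1.44 and -1.26 in LL, -2.20 and -2.81 in WL, -2.06 and -1.74 in LW, and -1.81 and -1.34 in WW, with both WL arrays the lowest of the 8. Npr3, the receptor that clears these peptides, was at 0.59 and 1.15 in LL, 1.97 and 0.14 in WL, 1.72 and 2.04 in LW, and 2.93 and 2.78 in WW. WW was above all 6 other arrays for Npr3, and the LL difference was -1.99 ± 0.57 (SE, limma adjusted p = 0.12).

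**Figure D4:**
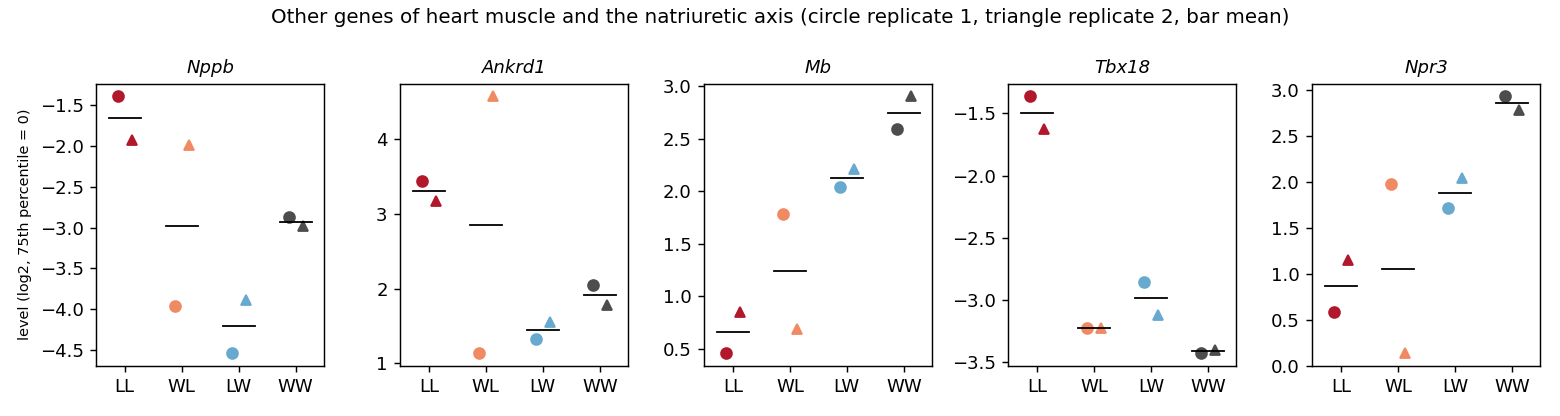
Levels (log2, array 75th percentile at 0) of Nppb, Ankrd1, Mb, Tbx18 and Npr3 in the 2 mice of each group, with the mean as a bar and a separate y axis per gene. Tbx18 is high in both LL mice only, Mb and Npr3 are highest in WW, and the WL mice lie far apart for Nppb, Ankrd1, Mb and Npr3.

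Genes of excitation and coupling and the cardiac regulators had medians nearer 0. Of 16 excitation genes, 8 were below 0 in LL, 11 in WL and 10 in LW, with medians of -0.01, -0.27 and -0.15. Gja1, the main gap junction gene of working heart muscle and many other cells, was at -0.65 and -0.21 in LL, -0.79 and -0.71 in WL, -1.60 and -1.36 in LW, and -1.31 and -1.11 in WW, with all LL and WL arrays above all LW and WW arrays. Popdc2, a cyclic nucleotide-binding membrane protein of muscle, was at 0.97 and 0.72 in LL, 0.02 and 0.04 in WL, 0.11 and 0.18 in LW, and 0.31 and 0.29 in WW, highest in LL (difference 0.55, limma adjusted p = 0.10). Of 13 regulators, 4 were below 0 in LL, 10 in WL and 6 in LW, with medians of 0.22, -0.28 and 0.01. Tbx20, a cardiac T-box factor, was at -2.88 and -2.96 in LL, -4.30 and -4.71 in WL, -3.88 and -3.22 in LW, and -3.57 and -3.07 in WW, so that WL was below all others. Of 6 other genes listed for atrium, not all particular to it, 4 were below 0 in LL, 4 in WL and 5 in LW. Their medians were -0.25, -0.40 and -0.14, and Sbk2 was not kept.

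Markers of other cell types were read beside these values. The 6 tested ventricular genes had a mean level between -2.25 and -2.17 in LL, -2.50 and -2.26 in WL, -2.18 and -2.10 in LW, and -2.02 and -1.97 in WW, with 1 listed gene, Hey2, not kept for testing. Their median difference was -0.06 in LL, with 4 below 0 and 2 above, -0.44 in WL and -0.21 in LW. Myh7 was at 0.41 and 0.45 in LL, 0.44 and 0.36 in WL, 1.37 and 1.14 in LW, and 1.19 and 1.04 in WW. Its differences from WW were -0.69 in LL (limma adjusted p = 0.068), -0.72 in WL and 0.14 in LW. It was called in LL against LW (-0.82, limma adjusted p = 0.048), where 2.8% of all genes were. Smooth muscle, which the vessel and airway walls hold, had a mean level of 2.07 to 2.34 in LL, 2.02 to 2.28 in WL, 2.18 to 2.39 in LW and 2.20 in WW over 10 of 10 genes. The groups overlapped on that mean, and its median differences were 0.06 in LL, -0.09 in WL and 0.09 in LW. Skeletal muscle, with 11 of 13 genes tested and Myh1 and Myh2 not kept, had a mean level of -1.80 to -1.67 in LL, -1.80 to -1.74 in WL, -1.96 to -1.87 in LW and -1.99 to -1.89 in WW. Of the 11 genes, 3 were below 0 in LL, 3 in WL and 4 in LW, with medians of 0.18, 0.31 and 0.05. Myl1 was among those below 0 in each group, and its WW arrays, at 2.88 and 2.89, were above all other arrays.

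The lists for tissues that lie next to the lung differed between mice. Thymus genes, 5 of 8 tested with Rag1, Foxn1 and Ptcra not kept, had a mean level of -2.25 to -2.04 in LL, -2.30 to -1.01 in WL, -1.12 to -1.0 in LW and -1.17 to -0.97 in WW. The genes of this list were uneven: LL differences from WW ran from -3.00 to 0.09 with a median of -0.53. In LL against WW, Cd8b1 differed by -1.81 and Dntt by -0.12. With Rag1, Foxn1 and Ptcra not kept, the mean of this list is not read as an amount of thymus. Fat genes, 8 of 8 tested, ranged from -0.32 to 0.43 in LL, -0.28 to 0.76 in WL, 0.38 to 1.03 in LW and 0.08 to 0.30 in WW. Cartilage genes, 4 of 8 tested with Acan, Matn1 and Matn3 not kept, had a mean of -3.00 to -2.89 in LL, -2.79 to -2.70 in WL, -2.96 to -2.85 in LW and -3.76 to -3.18 in WW. The part of these lists in the levels of the heart muscle genes was not tested.

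The genes whose pattern was most like the mean of the 10 members were sought among 7876 genes above background on all arrays with a range of at least 1 on the log2 scale. The 10 nearest by Pearson correlation over the 8 arrays were Actn2 (0.96), Tsc22d3 (0.95), Pgam2 (0.94), Mybpc3 (0.94), Ttn (0.93), Tmem182 (0.93), Smpx (0.93), Inpp5j (0.92), Gm11730 (0.91) and Nkx2-5 (0.90). Of these, Actn2, Pgam2, Mybpc3, Ttn, Smpx and Nkx2-5 were on the lists of heart muscle genes used here. Actn2, the Z-disc crosslinker alpha-actinin, was at 2.52 and 2.05 in LL, 1.70 and 1.53 in WL, 1.82 and 2.25 in LW, and 2.46 and 2.54 in WW. Tsc22d3, a glucocorticoid-induced gene that is not particular to muscle, was at 4.92 and 4.53 in LL, 4.41 and 3.90 in WL, 4.46 and 4.69 in LW, and 4.98 and 5.07 in WW. Both were lowest in WL replicate 2 and highest in WW replicate 2, as was the mean of the members that they were selected to match.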

How the data were processed

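Each lung gave total RNA, which was labelled with Cy3 and hybridised to a one-colour Agilent array. Per the file headers, the deposited file of an array gives background-corrected intensity for each spot; the software named in the submitters' processing notes is Agilent Feature Extraction 11.5.1.1. The deposited series table holds log2 values; over 56605 probes at least 99.9% lay within 0.01 of the log2 processed signal minus a constant per array.

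Non-uniform spots (0 to 4 an array) were left out, spots of a probe averaged, log2 taken and the 75th percentile of the array subtracted. Probes well above background on both arrays of a group were kept (39602), and a gene was read by its brightest kept probe (25830 genes). limma 3.58.1 in R 4.3.3 fitted 4 group means to all 8 arrays with 4 residual and 2.19 prior degrees of freedom, called at a Benjamini-Hochberg adjusted p under 0.05. The script was tested on simulated data. Python 3.11.15 drew the figures.

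The members, the lists of other genes and the tests were chosen with earlier results of these data known. Named were all members, up to 4 called genes of a list or otherwise the 2 with the smallest p, markers that check the tissue, and the 10 genes most like the members. Some genes that this rule names are not reported here. The alternatives tried were another background correction, quantile normalisation, other percentiles, filters, probes, variance models and sets of arrays. Number of arrays limits the precision.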

Additional observations from a re-analysis of the deposited data

Results flagged for a closer look

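Sln, which encodes the calcium pump inhibitor sarcolipin, had mean differences between recipients of opposite sign under the 2 kinds of marrow. Myh6, Nppa, Tnnt2, Ryr2 and Tnnc1 had the same signs as Sln, whereas Myl7, Myl4, Tnni3 and Actc1 did not. Under LysM-DTR and wild-type marrow the differences were 1.60 and -0.70 for Nppa, and 0.91 and -0.30 for Tnnt2. Sln was flagged because neither pair of groups overlapped, and the share of all genes for which this holds was not counted. With LysM-DTR marrow, the LysM-DTR recipients (LL) were above the wild-type recipients (LW) by 0.22 on the log2 scale, with an SE of 0.18, and both LL arrays were above both LW arrays, 1 of them only just; LL was above LW without overlap for 40.3% of all genes. With wild-type marrow, the LysM-DTR recipients (WL) differed from the wild-type recipients (WW) by -0.84, and both WL arrays were below both WW arrays. WL was below WW without overlap for 24.4% of all genes. The difference between these contrasts is the interaction of marrow and recipient, 1.07 ± 0.26 (SE), which did not pass an adjusted p under 0.05 in the limma fit over all genes. No p is given for it, since Sln was picked with its levels known.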

How the results depend on the processing

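The median difference of the members from WW stayed below 0 in LL, WL and LW under every alternative run. In LL it was -0.55 under quantile normalisation and ran from -0.60 to -0.23 when a mouse was left out. Without single mice it ran from -1.14 to -0.67 in WL and from -0.68 to -0.28 in LW. The count of other heart muscle genes called in LL, 2 in the fit reported, was 4 under quantile normalisation, 1 without a detection filter, 23 with the LL and WW arrays alone, 29 without both WL arrays, and 0 to 29 when a mouse was left out. In WL that count was 0 to 48 and in the interaction 0 to 13 when a mouse was left out, and in LW it was 0 throughout. Leaving out a mouse leaves 1 in its group, which is then assumed to vary like the others. The cause was not tested. Replicate numbers do not pair the mice, as deviations of same-numbered mice correlated between -0.10 and 0.19, and in the fit with a replicate block 1 of these genes was called in LL and 447 of all genes, beside 808 without it. Counted after seeing the data, members called in LL were 3 with the LL and WW arrays alone, when 6245 of all 25830 genes were called. They were 4 without both WL arrays, when 8286 of all genes were called. The lack of member calls in WL and in the interaction also depended on which WL mice were in the fit. Calls over all genes in LL ranged from 4 to 8286, in WL from 0 to 9741, in LW from 0 to 14 and in the interaction from 0 to 2209. Of the 19 probes of the members, 3 were not well above background on any array.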
